A study of Mus musculus with 6 samples.

Results

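The genes described here are 8 transcription regulators that antigen receptor signals and other cell activity induce: the nuclear receptors *Nr4a1*, *Nr4a2* and *Nr4a3*, the zinc finger factors *Egr1*, *Egr2* and *Egr3*, their corepressor *Nab2*, and *Npas4*. They are 8 of 45777 genes. They were selected on the difference of their summed counts between CD4+Lrig1+ and CD4+Lrig1- T cells within each table, so that difference is given as a description, without a test, and nothing is supported by it. Bulk RNA of CD4+Lrig1+ T cells and of CD4+Lrig1- T cells was sequenced, both from the spleen of female C57BL/6 mice, an inbred laboratory strain, at 7 weeks of age. No group carried an engineered allele or a treatment by the labels. The labels do not give how many mice were used or whether their cells were pooled. The libraries analysed were 2 per group, in 2 tables with 1 library of each group, called set 1 and set 2. What a set is, such as a day or a run, is not given in the sources used here. The study describes its quantitative data in general as coming from independent experiments or samples. Its legend to the figure that holds this sequencing also speaks of independent experiments. It does not say for these libraries whether they came from separate mice. P-values therefore measure the spread between these libraries, which may be technical.

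*Nr4a*, *Egr* and *Npas4* genes are immediate early genes, which are transcribed within a short time of a stimulus without new protein synthesis. In T cells, signals from the antigen receptor reach them through calcium and calcineurin and through the MAP kinase cascade, and serum response factor and CREB bind at several of their promoters. Nr4a receptors bind DNA without a known ligand and are used as reporters of antigen receptor signals. Egr factors switch on targets that include the corepressor *Nab2*, which in turn limits them. Nr4a, Egr2 and Egr3 proteins are known for roles in regulatory T cells and in T cell tolerance, whereas Npas4 is best known from neurons.

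The libraries held 44865070 to 59977951 estimated counts on genes, and 16123 genes passed the filter on low counts. The sort marker *Lrig1* had 221 and 129 CPM (counts after TMM scaling by library) in the Lrig1+ libraries of set 1 and set 2, against 75.4 and 36.7 in the Lrig1- libraries. *Foxp3*, the defining factor of regulatory T cells, had 589 and 615 CPM in Lrig1+ and 48.9 and 30.7 CPM in Lrig1- cells. T cell markers were present in every library, with none of 8 at a count of 0. The libraries also differed by set. The summed CPM of 10 B cell markers was 78.5 in Lrig1- and 98.3 in Lrig1+ cells of set 1, and 775 and 391 in set 2.

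Sequences upstream of transcript starts of the members were read from RefSeq promoters of GRCm38.p6, which had entries for 6 of the 8 genes. They are shown because the members are classic targets of CREB and serum response factor. The capitals mark these motifs only: TGACG (the core of the cAMP response element, which CREB binds), TGCGTCA, and the serum response element, each on both strands. TGCGTCA holds the reverse complement of TGACG, so these matches overlap. The motifs were chosen after the windows had been seen. The *Nr4a1* sequence (chr15:101266596-101266845, plus strand) ends just before the start of the curated mRNA NM_010444, and the *Egr2* sequence (chr10:67537619-67537819, plus strand) lies before that of NM_010118. Both are inside the span of their gene, because predicted transcripts start further upstream, and neither overlaps a GENCODE exon of that strand. The *Nr4a3* stretch is at chr4:48045087-48045116 on the plus strand and the *Npas4* stretch at chr19:4990127-4990156 on the minus strand, and each is 30 bases long. Their windows of 250 bases before NM_015743 and NM_153553 had 226 and 250 bases in GENCODE exons of that strand. The *Nr4a3* stretch also lies after 48045078, where the predicted transcript XM_006537656 starts.
Nr4a1: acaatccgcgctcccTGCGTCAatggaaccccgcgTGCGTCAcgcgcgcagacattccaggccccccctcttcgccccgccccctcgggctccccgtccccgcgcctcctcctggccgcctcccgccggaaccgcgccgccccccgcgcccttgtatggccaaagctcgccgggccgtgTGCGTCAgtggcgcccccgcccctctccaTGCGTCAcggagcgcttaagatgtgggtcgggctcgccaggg
Egr2: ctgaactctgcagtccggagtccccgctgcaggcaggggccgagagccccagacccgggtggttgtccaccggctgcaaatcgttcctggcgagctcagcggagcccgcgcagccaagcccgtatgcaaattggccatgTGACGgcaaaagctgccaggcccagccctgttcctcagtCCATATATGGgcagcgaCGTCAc
Nr4a3: catgtCGTCAcatTGACGtctcgcattcca
Npas4: gttcgaCGTCAcgggaTGACGtcggaagtc
TGCGTCA was found 4 times in the 250 bases before the start of NM_010444 of *Nr4a1*. Of 32851 RefSeq windows of that length, 1.75% held it at least once. Only 1 window held it at least 4 times, that of *Nr4a1* itself. The motif was chosen after this window had been seen, so nothing is supported by its rarity. At least 1 TGACG was in 17.8% of the windows, at least 2 were in 3.90% and at least 4 in 0.137%. The *Nr4a3* window held 4, as did that of *Nr4a2*, which precedes a transcript with 0 counts in every library. The windows of NM_010118 of *Egr2* and of *Npas4* held 2 each. The *Nab2* window held none of the motifs, and the *Egr2* windows before the starts at 67535499 and 67537566 held no TGACG. A serum response element was in 1.47% of the windows, among them that of NM_010118 and the *Egr2* window before 67537566. The full palindrome TGACGTCA, in 1.55% of windows, was in none of the members' windows. An Egr site, GCGGGGGCG, was in 2.57% of windows. Among the members it was found only in that of *Nr4a1*, where it is left in lower case. The motif AAAGGTCA, named NBRE, was in 1.34% of windows and in none of the members' windows. A match of letters is a description of the sequence and not a binding site measured here.

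All 8 genes passed the filter on low counts. *Npas4* had 4 counts in 1 Lrig1- library, and so was kept largely for its Lrig1+ libraries. 7 of the 8 were higher in Lrig1+ than in Lrig1- cells in both sets, as were 36.5% of all genes tested, and the exception was *Egr1*. None was lower in both sets, as 41.3% of all genes were. In 6 of the 8 both Lrig1+ libraries lay above both Lrig1- libraries, a pattern found in 14.3% of all genes, and none lay below, as 11.8% did. The median log2 ratio of Lrig1+ over Lrig1- was 0.88 in set 1 and 1.10 in set 2, against 0.01 and -0.06 over all genes. These counts and medians follow from the way the genes were chosen. Summed CPM of 5 regulatory T cell markers was 207 and 140 in the Lrig1- libraries and 2019.8 and 1717 in the Lrig1+ libraries, and the part of this difference in the members' values was not tested. In bulk RNA, more cells that express a gene and more RNA per cell cannot be told apart.

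**Figure D1:**
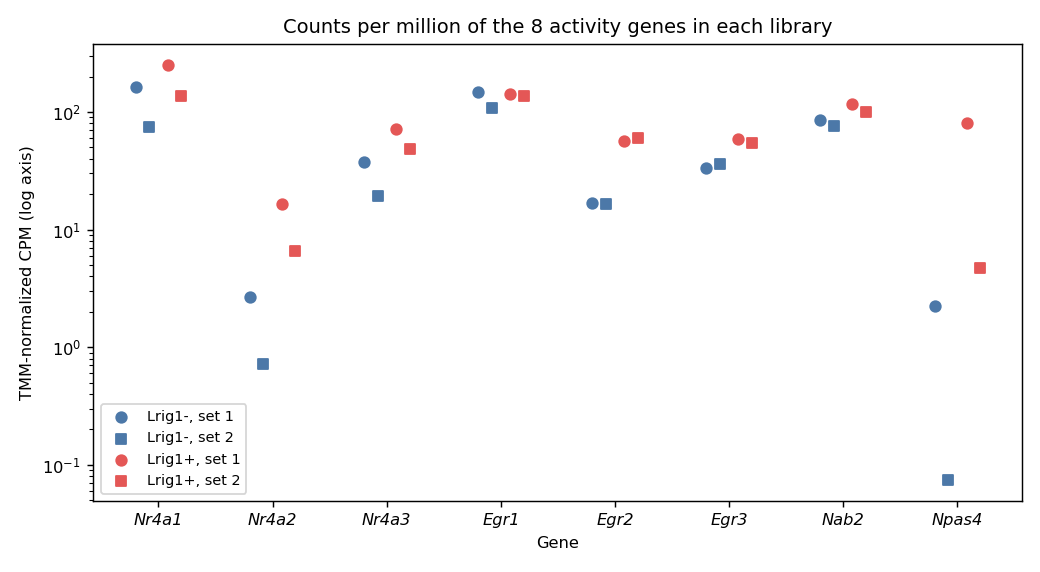
CPM of the 8 genes in each library on a log axis, by Lrig1 group, with the set shown by the marker. *Npas4* spanned 0.0741 to 80.5 CPM, while *Egr1* spanned 108 to 147 CPM with overlapping groups.

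*Nr4a1*, which encodes Nur77 (gene ID 15370, chromosome 15 from 101253902 to 101274795), had 162 and 75.1 CPM in the Lrig1- libraries of set 1 and set 2, and 252 and 137 CPM in the Lrig1+ libraries. The groups overlapped, because the Lrig1- library of set 1 was above the Lrig1+ library of set 2. Within a set, Lrig1+ was 1.56-fold higher in set 1 and 1.82-fold in set 2. *Nr4a3*, which encodes NOR1 (gene ID 18124, chromosome 4 from 48045078 to 48086447), had 37.5 and 19.2 CPM in Lrig1- and 72.3 and 48.2 CPM in Lrig1+ cells, without overlap. Its ratio was 1.93 in set 1 and 2.52 in set 2.

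*Nr4a2*, which encodes Nurr1 (gene ID 18227, chromosome 2 from 57106830 to 57124003), was the least abundant of the 3 receptor genes and differed most. It had 2.67 and 0.722 CPM in Lrig1- cells and 16.4 and 6.55 CPM in Lrig1+ cells, from 128, 39, 854 and 376 counts. The groups did not overlap. The ratio was 6.14 in set 1 and 9.07 in set 2. On the per-length scale of FPKM (fragments scaled to transcript length and library size), *Nr4a1* made up 89.8% and 89.4% of the summed Nr4a level in Lrig1- and 85.1% and 83.8% in Lrig1+ cells. The share of *Nr4a2* was 1.06% and 0.600% in Lrig1- and 4.14% and 3.02% in Lrig1+ cells.

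*Egr2* (gene ID 13654, chromosome 10 from 67534469 to 67542188) was the Egr gene that differed most and varied little between sets. It had 16.9 and 16.4 CPM in Lrig1- and 56.2 and 60.6 CPM in Lrig1+ cells. Lrig1+ was 3.32-fold higher in set 1 and 3.70-fold in set 2. *Egr3* (gene ID 13655, chromosome 14 from 70077317 to 70082613), a close relative that acts with *Egr2* in T cell tolerance, had 33.6 and 36.3 CPM in Lrig1- and 59.2 and 54.9 CPM in Lrig1+ cells. Its ratio was 1.76 in set 1 and 1.51 in set 2, and the groups of both genes were separate.

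*Egr1* (gene ID 13653), the founding member of the family, had 147 and 108 CPM in Lrig1- and 143 and 136 CPM in Lrig1+ cells. The groups overlapped, and the log2 ratio was -0.04 in set 1 and 0.33 in set 2. Without the Lrig1- library of set 2 its log2 fold change was -0.068, against 0.13 with all libraries. In FPKM it took 77.2% and 70.7% of the summed level of the 3 Egr genes in Lrig1- and 57.9% and 56.5% in Lrig1+ cells. The share of *Egr2* was 9.26% and 11.1% in Lrig1- and 23.7% and 26.1% in Lrig1+ cells. *Egr3* stayed between 13.6% and 18.4% in the 4 libraries.

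*Nab2* (gene ID 17937, chromosome 10 from 127660918 to 127666703), a corepressor that binds Egr proteins, had 86.3 and 75.3 CPM in Lrig1- and 116 and 101 CPM in Lrig1+ cells. The groups did not overlap. The ratio was 1.34 in both sets, the smallest of the 6 genes whose groups were separate.

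*Npas4* (gene ID 225872, chromosome 19 from 4984353 to 5003439), a bHLH-PAS factor induced by calcium, had 107 and 4 counts in the Lrig1- libraries and 4184 and 271 in the Lrig1+ libraries. In CPM these were 2.23, 0.0741, 80.5 and 4.72. The groups were separate, although the Lrig1- library of set 1 came close to the Lrig1+ library of set 2. Lrig1+ was 36.0-fold higher in set 1 (95% exact interval 29.7 to 44.0) and 63.7-fold in set 2 (24.6 to 236), where the intervals cover counting error only.

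Per length, *Nr4a1*, *Egr1* and *Nab2* were the 3 most abundant members in every library. *Nr4a1* led with 97.3 and 49.1 FPKM in the Lrig1+ libraries and 62.2 FPKM in the Lrig1- library of set 1, and *Egr1* led with 29.7 FPKM in the Lrig1- library of set 2. Neighbours in this order were close: in that last library *Nr4a1* had 25.4 and *Nab2* 25.3 FPKM, and in the Lrig1+ library of set 1 *Nab2* and *Egr1* both had 44.7. *Egr2*, *Egr3* and *Nr4a3* formed the middle, at 2.83 to 18.5 FPKM. *Nr4a2* and *Npas4* were lowest in every library, at 0.00334 to 5.46 FPKM.

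**Figure D2:**
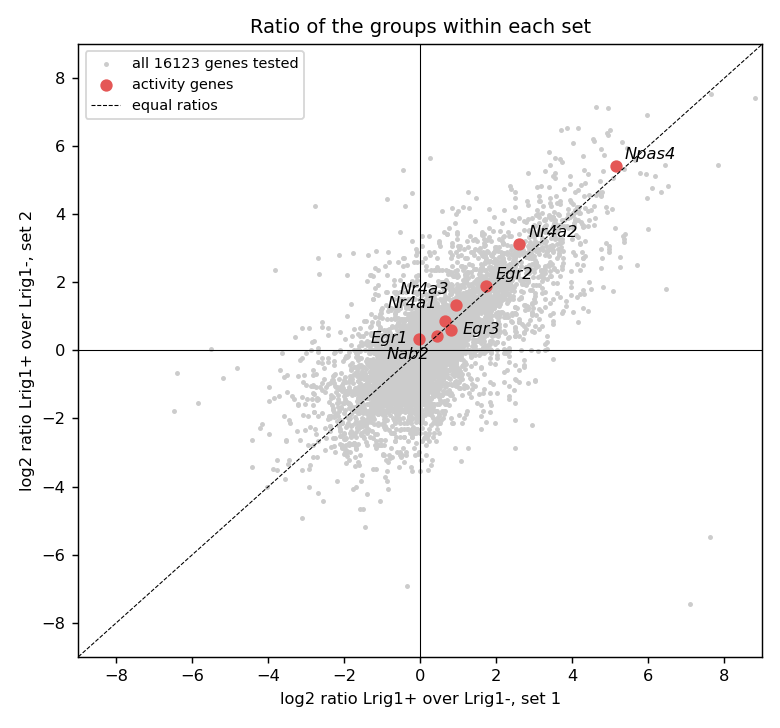
Log2 ratio of Lrig1+ over Lrig1- in set 1 (x axis) and set 2 (y axis) for all 16123 genes tested (grey) and the 8 activity genes (red), with the line of equal ratios dashed. *Npas4* lies at 5.15 and 5.41, and *Egr1* at -0.04 and 0.33.

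The difference between sets was not used to choose the genes, and it was tested across all 16123 genes with edgeR's quasi-likelihood test with the Lrig1 group as the other term, which leaves 1 residual degree of freedom. *Npas4* was lower in set 2 by a log2 difference of -4.15 (adjusted p = 1.6e-06). This gene was kept by the filter largely for its Lrig1+ libraries, and 1 Lrig1- library had 4 counts. Most of its Lrig1+ counts lay on predicted models of a wider locus, described below, so this value is that of the locus. *Nr4a2* differed by -1.53 (adjusted p = 0.00029), *Nr4a1* by -0.99 (adjusted p = 3.8e-05) and *Nr4a3* by -0.77 (adjusted p = 0.00053), so all 3 Nr4a genes fell. *Nab2* fell by a smaller amount, with a log2 difference of -0.20 (adjusted p = 0.034).

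The Egr genes did not pass that test. The log2 difference of *Egr1* was -0.25 (adjusted p = 0.056), that of *Egr2* 0.04 (adjusted p = 0.74) and that of *Egr3* -0.00 (adjusted p = 0.99). Thus 5 of 8 members, *Npas4* among them, were called lower in set 2, against 34.5% of all genes, and 0 were called higher, against 32.1%. The median of the members was -0.51, against -0.02 over all genes. Without the group term 0 of the 8 were called, although that fit still called other genes, whose number is given in the last section. The members' calls between sets therefore depend on the model. The B cell markers, and heat shock genes below in both directions, also differed between sets, and their part in the members' difference was not tested.

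The share of each gene's counts that went to its transcripts was compared next, since a share is not set by the level of the gene. 7 members had several RefSeq transcripts. The share of the main transcript had no overlap between groups in 2 of them, *Nr4a2* and *Npas4*, as it had none in 22.9% of 9725 genes with several transcripts. For *Npas4* this rests on an Lrig1- library with 4 counts, all on 1 transcript (100%, 95% Wilson interval 51.0 to 100). With 2 libraries against 2, the exact permutation test, two-sided, gave p = 0.333 for both, the smallest it can give.

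In *Nr4a2*, the curated mRNA NM_013613 had 0 counts in both Lrig1- libraries, which allows a share of up to 2.34% and 7.69% of the gene's counts. In the Lrig1+ libraries it had 411 and 183 counts, or 48.1% (95% Wilson interval 44.8 to 51.5) and 48.7% (43.7 to 53.7). Against a floor of 3 counts in each Lrig1- library it was at least 126-fold higher in set 1 and at least 57.4-fold higher in set 2. The noncoding transcript XR_003951343 took 82.0% and 100% of the counts in Lrig1- cells and 45.4% and 45.2% in Lrig1+ cells. Its own level was 3.40-fold and 4.10-fold higher in Lrig1+ cells. The authors' software divides reads among overlapping transcripts, so these counts are estimates, and a transcript listed at 0 may have had reads that were given to another.

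In *Npas4*, the curated mRNA NM_153553 had 0 counts in both Lrig1- libraries and 102 and 16 counts in the Lrig1+ libraries. Those were 2.44% and 5.90% of the gene's counts, so that 97.6% and 94.1% lay on predicted models. These models reach 13468 bases upstream of the curated start. The longest, XM_030250872 of 16419 bases, held every count of the Lrig1- libraries, and 93.5% and 32.8% of the counts in Lrig1+ cells. An unclassified GENCODE gene, AC124502.5, lies inside this span on the same strand (chromosome 19 from 4991357 to 4993113). The level of *Npas4* above is therefore that of the whole locus, and reads of the curated mRNA cannot be told apart from it in these tables.

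In the other 5 members with several transcripts, the share of the main transcript overlapped between groups. NM_010444 of *Nr4a1* took 86.4% to 91.9% of its counts. NM_010118 of *Egr2* took 79.1% to 91.1%, and NM_008668 of *Nab2* 56.8% to 67.3%. The share of NM_015743 in *Nr4a3* was the most variable of these, at 28.9% and 56.0% in Lrig1- and 48.0% and 60.5% in Lrig1+ cells.

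**Figure D3:**
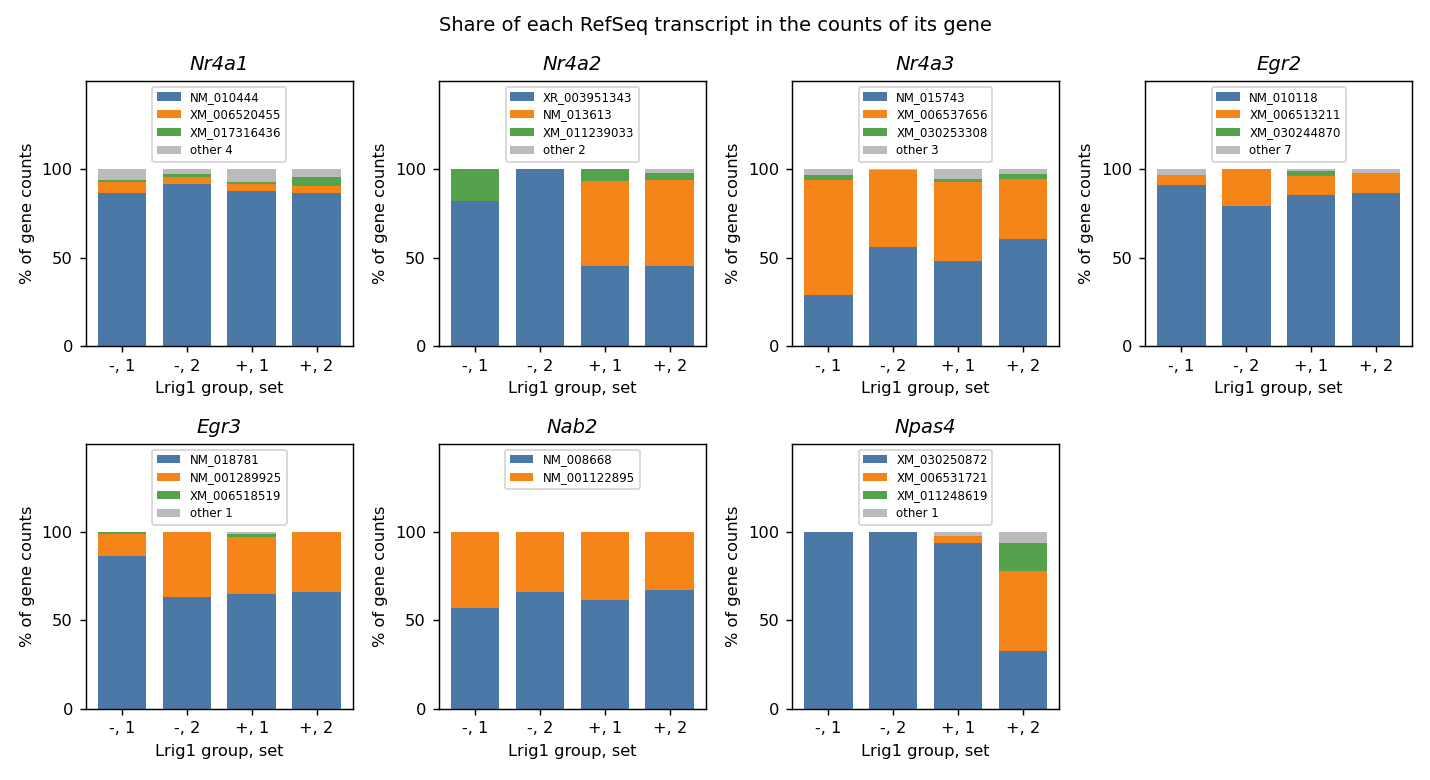
Percent of a gene's counts on each RefSeq transcript for the 7 members with several transcripts, by Lrig1 group and set, with the 3 largest coloured and the rest in grey. NM_013613 of *Nr4a2* appears only in the Lrig1+ bars, at 48.1% and 48.7%.

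Other genes of the pathway were taken from 7 lists, of which 106 genes passed the filter. The lists were chosen with earlier results of these data known. The calls and adjusted p of their genes are therefore a description, and nothing is supported by them. In edgeR's quasi-likelihood test without a term for the set, 0 of the 106 genes passed an adjusted p of 0.05, as did 0 of all 16123 genes (0.0% in each direction), while DESeq2's Wald test called 15 of the 106 higher and 0 lower, against 1.61% and 0.31% of all genes. Even *Foxp3*, at the CPM given above, had an adjusted p of 0.50 in that quasi-likelihood test, so 0 calls do not show equal levels. At an unadjusted p under 0.05 the quasi-likelihood test gave 25 of the 106 higher and 0 lower, against 4.18% and 1.41%. With the set as a term, 46 were called higher and 19 lower, against 14.6% and 12.8% of all genes, and DESeq2 with that term called 42 and 22, against 11.5% and 12.2%. The calls, log2 fold changes and adjusted p below are from edgeR's fit with the set as a term, which leaves 1 residual degree of freedom.

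Among 7 partners and relatives tested, 3 were higher and 1 lower (2 and 1 in DESeq2 with the same term). *Nab1*, the paralog of *Nab2*, had 101 and 120 CPM in Lrig1- and 79.2 and 89.5 CPM in Lrig1+ cells, and fell (log2 fold change -0.39, adjusted p = 0.0065). *Rxra*, which pairs with Nurr1 and Nur77, rose from 25.7 and 26.3 to 35.5 and 36.3 CPM (0.47, adjusted p = 0.0074). *Egr4*, the other Egr gene, had 0 counts in both Lrig1- libraries and 33 and 29 in the Lrig1+ libraries, at least 10.1-fold and 9.09-fold higher against a floor of 3 counts per library.

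The AP-1 and ATF genes, which encode the other main immediate early factors, were mostly not higher. Of 8 tested, 1 was called higher and 3 lower (1 and 2 in DESeq2), with a median log2 fold change of -0.26. *Fos* had 150 and 86.1 CPM in Lrig1- and 150 and 84.2 CPM in Lrig1+ cells. *Junb* had 956 and 560 against 922 and 533 CPM, and neither gene was called. *Fosb* was higher (log2 fold change 1.01, adjusted p = 0.00093), and *Jun* was lower (-0.45, adjusted p = 0.022). In the fit without the set, where they were 0.92 and -0.33, leaving out the Lrig1+ library of set 1 turned *Fosb* to -0.53, and leaving out the Lrig1- library of set 1 turned *Jun* to 0.71. Leaving out a library makes the sets uneven between the groups, so the difference between sets enters these values. Within set 1 and set 2 the log2 ratios were 0.86 and 1.20 for *Fosb*, and -0.23 and -0.69 for *Jun*. The list was low in set 2, where 7 of 8 genes fell, with a median log2 difference of -1.49.

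Of 24 other immediate early and feedback genes, 10 were higher and 4 lower (9 and 5 in DESeq2). The MAP kinase phosphatase gene *Dusp4* rose from 2.88 and 1.89 CPM in Lrig1- to 49.2 and 27.7 CPM in Lrig1+ cells (log2 fold change 3.99, adjusted p = 4.8e-06). *Nfil3*, a bZIP repressor, rose by 2.90, and *Dusp1* by 1.17. *Klf2*, which quiescent T cells express, fell by 0.54 (adjusted p = 0.0028). Among 21 upstream kinases, phosphatases and factors 3 were higher and 5 lower, whereas DESeq2 with the same term called 1 higher and 9 lower. *Nfatc1* rose from 245 and 213 to 432 and 371 CPM (0.81, adjusted p = 0.00044), while *Mef2a* fell (-0.63, adjusted p = 0.0021).

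Of 23 antigen receptor activity genes, 20 were higher and 2 lower (19 and 1 in DESeq2), with a median log2 fold change of 1.62. This list shares *Il2ra* and *Ctla4* with the regulatory T cell markers. The inhibitory receptor gene *Pdcd1* rose from 9.04 and 18.0 to 83.3 and 169.9 CPM (3.22, adjusted p = 3.8e-06), *Lag3* rose by 2.94 and *Tnfrsf9* by 3.72. *Cd69*, an early surface marker of activation, was not called (-0.13, adjusted p = 0.22). Of 12 anergy genes 5 were higher and 3 lower (5 and 3 in DESeq2), with *Nt5e* at a log2 fold change of 2.84 and *Ikzf1* at -0.85. The heat shock list, which also follows handling of cells, had 4 of 11 higher and 1 lower (5 and 1 in DESeq2). Its members *Hspa1a* and *Hspa1b* were not called between groups, and were lower in set 2 by log2 differences of -3.22 and -2.91. The list as a whole did not fall in set 2, where 5 of its 11 genes were called higher and 4 lower. Its median log2 difference between sets was 0.15.

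**Figure D4:**
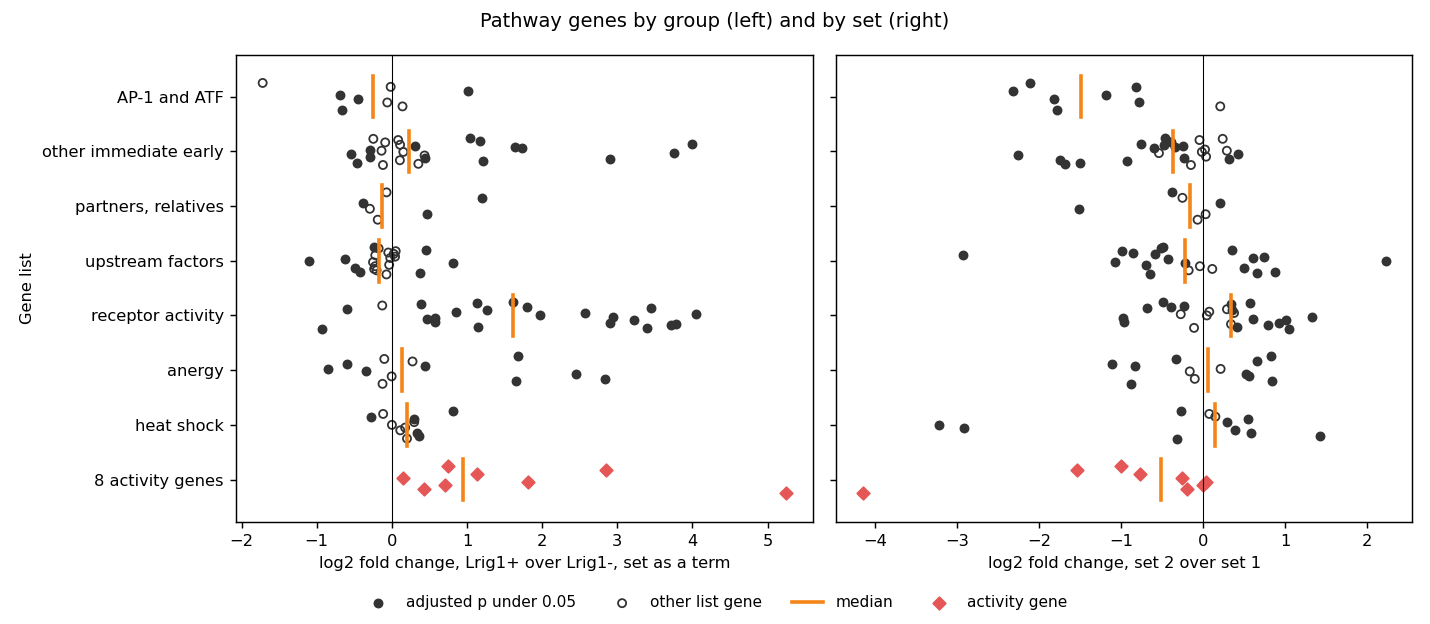
Log2 fold change of the genes in the 7 lists and of the 8 activity genes (red diamonds) between groups (left) and between sets (right), in edgeR's quasi-likelihood fits. Both fits held the group and the set as terms. Filled dark points passed an adjusted p of 0.05, while the diamonds are all filled and show no test result. Orange bars are medians, and *Egr4* is left out of points and median because its Lrig1- counts were 0. The antigen receptor activity genes have the rightmost median of the lists on the left, 1.62.

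The likeness of other genes was measured as the root mean square difference of centred log2 CPM over the 4 libraries, among 12685 genes with a mean of at least 1 CPM. It uses the same library values on which the members were selected and the cells sorted, so it is a description. The gene nearest to the mean profile of the 8 members was *Lrig1* at 0.05, followed by *Inppl1* at 0.07 and *Txlnb*, *Rnf43* and *Pgpep1l* at 0.10 to 0.11. This order rested on *Npas4*. When *Npas4* was left out, a choice made after seeing the data, *Lrig1* ranked 356 and *I730030J21Rik* was nearest. The nearest gene to *Nr4a1* was *Map3k5* at 0.03, to *Nr4a2* *Ptpn13* at 0.15, to *Nr4a3* *Tnf* at 0.06, to *Egr1* *Dnase1l1* at 0.02, to *Egr2* *Adap1* at 0.07, to *Egr3* *Slc36a4* at 0.03 and to *Nab2* *Dmap1* at 0.01. *Npas4* had no gene as close, with *Ryr2* nearest at 0.53. Within the members, *Egr1* and *Nab2* were the closest pair at 0.17.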

How the data were processed

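RNA of CD4+Lrig1+ and CD4+Lrig1- T cells was sequenced with a stranded mRNA kit. The submitters' processing notes name Trimmomatic 0.38, HISAT2 2.1.0, Bowtie2 2.3.4.1, StringTie 2.1.3b and the builds GRCm38 and mm10. The deposited values include estimated counts per RefSeq transcript, which the authors obtained from StringTie without normalization. The FPKM values were scaled by the authors to transcript length and mapped fragments, as deposited. The labels list 6 samples, 3 per group. In 2 tables the columns name the group, and these 4 libraries were used, while 6 columns of per-sample values in another table do not name a group and were not used. The design was written for all libraries whose column names the group.

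Counts of 129299 transcripts were summed per gene. In R 4.3.3, edgeR 4.0.16 was used for filterByExpr, TMM and the quasi-likelihood test, with Benjamini-Hochberg adjustment over 16123 genes and a threshold of 0.05. The study's methods name edgeR and no covariate, so the main model held the group alone. It was fitted to 2 libraries per group, whereas the labels list 3, so its calls are not a repeat of the study's own. A model with the table as a term was also fitted. To each log2 ratio of libraries in 1 set a prior count of 2 was applied. Alternatives were DESeq2 1.42.0 (size factors and Wald test), no filter, a minimum of 10 counts in each of the libraries, log2 of FPKM with a pseudocount of 1 or 0.1 in limma 3.58.1, and leaving out each library. DESeq2 and limma with the table term, curated transcripts alone and the profile without *Npas4* were added after seeing the data. Python 3.11.15 with scipy 1.17.1 gave intervals, exact tests and motif matches in RefSeq promoters of GRCm38.p6.

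The members and the gene lists were chosen with earlier results of these data known. Genes named were the 8 members, up to 5 called genes with the smallest p and the 2 extremes of fold change in each list, the nearest profiles, *Lrig1* and *Foxp3*. *Fos*, *Junb*, *Cd69*, *Hspa1a* and *Hspa1b* were named after their values were seen. Marker lists of T, CD8 T, regulatory T, B, myeloid, NK, and erythroid and platelet cells were summed. CD8 T cell markers summed to 14.1 to 97.3 CPM, myeloid markers to 75.8 to 315, NK markers to 7.46 to 62.3, and erythroid and platelet markers to 5.90 to 58.9. T cell markers summed to 3915 to 6134 CPM.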

Additional observations from a re-analysis of the deposited data

How the results depend on the processing

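Between groups, 0 genes were called higher and 0 lower by the quasi-likelihood test. DESeq2's Wald test called 260 higher and 50 lower, 15 of the higher ones in the pathway lists. The columns carry no replicate numbers, so the table was used as the block. With this block 2358 were called higher and 2056 lower (46 and 19 in the lists), with DESeq2 and the block 1848 and 1969 (42 and 22), and with limma and the block 1911 and 1016 (39 and 10). Leaving out each library gave 1 to 88 genes higher, 0 to 2 lower and 0 to 6 list genes higher, with the 88 when the Lrig1- library of set 1 was left out. A lone library is then assumed to vary like the other group.

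The median log2 fold change of the members, 0.90, was 0.72 with at least 10 counts in every library, where *Npas4* is not tested, 1.13 on curated transcripts alone, and 0.73 to 1.55 when each library was left out, the highest without the Lrig1- library of set 1. Of *Npas4* the log2 fold change, 5.21, was 2.03 to 9.15 when each library was left out, lowest without the Lrig1+ library of set 1, and 1.56 with limma on log2(FPKM + 1), a scale that understates low genes. The difference between sets was called in 10742 of 16123 genes. Without the group term it was called in 5660, and in 0 of the 8 members.

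Leaving out 1 library turned the direction of *Egr1* (-0.068 to 0.41), *Fosb* (-0.53 to 2.69), *Fosl2* (-1.42 to 0.024), *Jun* (-1.68 to 0.71), *Maff* (-1.76 to 0.56), *Atf3* (-3.26 to 0.25), *Mef2c* (-2.51 to 0.51), *Ppp3r1* (-0.90 to 0.11), *Hspe1* (-0.50 to 1.28), *Hsp90aa1* (-0.030 to 0.62) and *Dnase1l1* (-0.068 to 0.40). These fits had no term for the set, so leaving out a library made the sets uneven between the groups. The difference between sets therefore enters these values and cannot be told apart from the group in them. The cause was not tested. With 2 libraries per group, no library could be tested as an outlier, and 4 to 39 counts behind the lowest values of *Npas4* and *Nr4a2* limit their ratios.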
